A study of Mus musculus with 35 samples.

Results

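The comparison described here is between 3xTgAD/Polb+/- mice given Urolithin A (ADPolB_UA, 6 mice, 2 male and 4 female) and wild-type mice given vehicle (WT_veh, 7 mice, 3 male and 4 female), taken by group label out of 35 mice, across all 760 genes measured. The ADPolB_UA mice carried the 3xTgAD alleles, among them Tg(APPSwe,tauP301)L1Lfa, and 1 disrupted copy of Polb (heterozygous Polbtm1Rsky). The WT_veh mice carried none of these. Both groups were 18 months old and on a C57BL6/J background, and treatment lasted 5 months by oral gavage, with Urolithin A at 200 mg/kg/day in ADPolB_UA. Total RNA came from 5 mg of hippocampus per mouse and was read on a NanoString nCounter panel of mouse Alzheimer disease genes, in which colour-coded probes bind and count single RNA molecules without amplification. The 3 other groups were 3xTgAD/Polb+/- mice with vehicle (ADPolB_veh, 7 mice), 3xTgAD mice with Urolithin A (AD_UA, 7 mice) and 3xTgAD mice with vehicle (AD_veh, 8 mice). The samples used here include no wild-type mice given Urolithin A, so the transgenes, the lost Polb copy and the compound cannot be told apart in the difference between ADPolB_UA and WT_veh.

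The 3xTgAD mouse expresses mutant human amyloid precursor protein and tau from neuronal transgenes and accumulates amyloid plaques and tau tangles with age. Polb encodes DNA polymerase beta, the gap-filling enzyme of base excision repair. Urolithin A is made by gut bacteria from plant ellagitannins and is known to stimulate mitophagy, the removal of damaged mitochondria by autophagy. In such brains, microglia near plaques take on a phagocytic state with raised complement, lysosomal and lipid-handling genes, astrocytes become reactive, and synapses are lost.

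All values below are on the deposited log2 scale, where 1 unit is a doubling, and differences are ADPolB_UA minus WT_veh, adjusted for sex, unless another pair is named. The sample median over all genes was 8.90 ± 0.09 (SD, n = 6) in ADPolB_UA and 8.79 ± 0.14 (SD, n = 7) in WT_veh, a difference of 0.12 (exact two-sided permutation test, p = 0.104). Some mice stood apart on the first principal component of these 13 mice, which held 61.8% of the variance. ADPolB_UA 5 lay at its high end (15.1), and WT_veh 6, 1 and 2 at its low end (-13.4, -11.0 and -10.4). The same mice had the highest and the lowest myelin gene means. Of 39 defining markers of brain cell types, 8 were on the panel. The oligodendrocyte marker Mbp averaged 12.6 in ADPolB_UA and 11.9 in WT_veh. The neuronal markers Snap25 and Syt1 averaged 12.5 and 11.3 in both groups, and the astrocyte marker Gja1 averaged 11.2 in ADPolB_UA and 11.1 in WT_veh. The striatal marker Adora2a averaged 3.66 in ADPolB_UA and 3.49 in WT_veh, near the low end of the table. The higher mean rested on ADPolB_UA 6, without which the difference in Adora2a was -0.30. No marker particular to hippocampal neurons was among the 8.

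Only 1 gene of 760 passed the threshold, and it fell in ADPolB_UA. Acp1, a small cytosolic phosphatase that acts on phosphotyrosine, had a lowest, median and highest value of 5.65, 5.78 and 6.18 in ADPolB_UA, against 5.95, 6.48 and 6.52 in WT_veh. All 6 ADPolB_UA mice lay below the WT_veh mean, and the groups overlapped only through WT_veh 3, the lowest of its group, which lay below ADPolB_UA 5. Acp1 was at 0.69-fold (log2 -0.54, SE 0.11, 95% confidence interval -0.77 to -0.31, limma adjusted p = 0.0302), and the share of genes called was 0.132%. The level in the other groups with the transgenes averaged 5.89 ± 0.22 (SD, n = 7) in ADPolB_veh, 5.74 ± 0.24 (SD, n = 7) in AD_UA and 5.88 ± 0.11 (SD, n = 8) in AD_veh, all below the 6.38 ± 0.21 (SD, n = 7) of WT_veh. ADPolB_UA differed little from ADPolB_veh (log2 -0.05, 95% confidence interval -0.28 to 0.19). The call was lost when only the 13 mice were fitted (adjusted p = 0.168), with trend and robust moderation (0.0612) and without any 1 of WT_veh 1, 2, 7 or 8 (0.0994, 0.0968, 0.0690 and 0.0982) or ADPolB_UA 1, 2, 4 or 6 (0.170, 0.114, 0.110 and 0.110). In the alternatives that fitted both sexes together and tested Acp1, its log2 difference lay between -0.78 and -0.49.

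With Acp1 included, 76 of 760 genes (10%) had an unadjusted p below 0.05, where the threshold alone would give 38 on average. Genes varied together between mice, so such a count can lie far from 38, and whether 76 exceeded it was not tested. Of the 76 genes, 58 were higher (7.63%) and 18 lower (2.37%) in ADPolB_UA, and apart from Acp1 their adjusted p ran between 0.188 and 0.463. The split turned with the scaling, to 30 higher and 42 lower with each mouse centred on its median and to 24 and 52 with quantile normalization. Median centring moved the median difference of all genes to -0.03 and quantile normalization to -0.02, against 0.08 as deposited. The count also rested on single mice: it was 31 without ADPolB_UA 5, 124 without ADPolB_UA 6, 46 without WT_veh 6, 50 without ADPolB_UA 2, and 142 without WT_veh 5. All 6 ADPolB_UA mice lay on 1 side of the WT_veh mean in 54 of the 76 genes and in 124 of all 760. The groups did not overlap at all in 1 gene that was higher (Mapt, 0.132%) and 1 that was lower (Ncoa1, 0.132%).

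**Figure D1:**
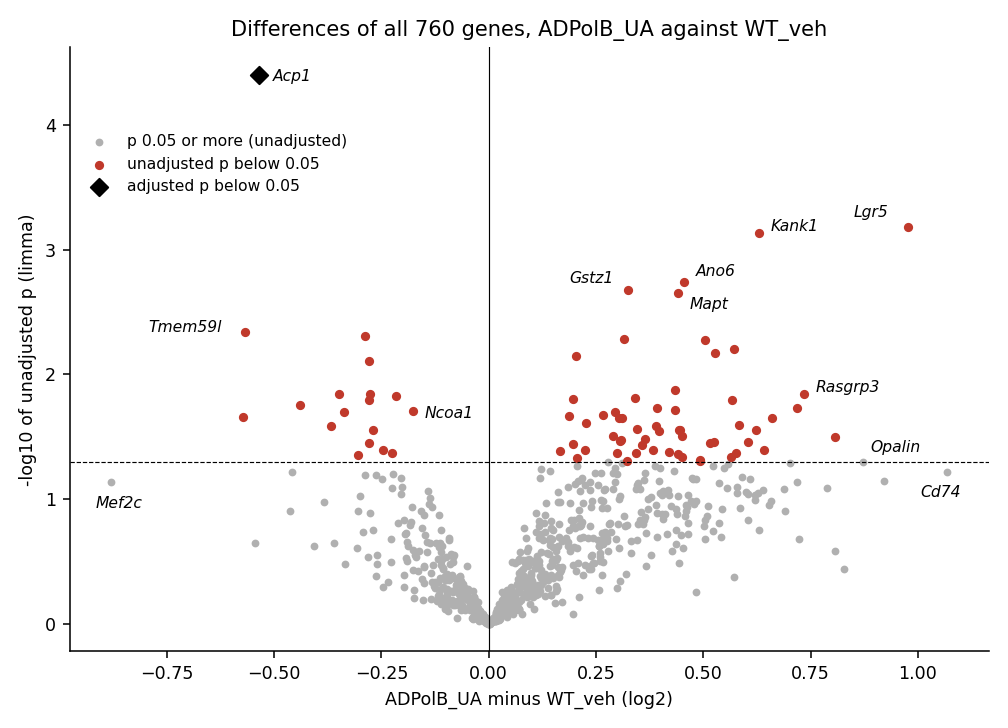
Log2 difference of ADPolB_UA minus WT_veh (horizontal) against the negative log10 of the unadjusted limma p (vertical) for 760 genes. The dashed line marks the 0.05 threshold, above which lie 76 genes, and the diamond is Acp1, the 1 gene called after adjustment.

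Most differences were small. For 669 genes (88%) the 95% confidence interval lay within a 2-fold difference either way, and for 496 (65.3%) within a 1.5-fold difference. The estimate itself exceeded 1.5-fold in 34 genes, of which 33 were higher and 1, Mef2c, was lower. Of these 34 genes, 13 belonged to the oligodendrocyte and myelin list, 11 to other lists only and 10 to no list. Of all 760 genes, 48 were on the oligodendrocyte and myelin list and 285 on any list. Cd74 alone exceeded 2-fold. By level, the dimmest 25% of the genes held 30 of the higher and 2 of the lower genes at p below 0.05, and the brightest 25% held 6 and 9. The median difference was 0.20 in the dimmest 25% and -0.01 in the brightest.

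Lgr5, a receptor for R-spondins that amplifies Wnt signalling and marks stem cells in several organs, had the second smallest p. Its lowest, median and highest values were 5.22, 5.65 and 7.35 in ADPolB_UA, against 4.41, 4.89 and 5.45 in WT_veh. The highest value came from ADPolB_UA 6, with the next ADPolB_UA mouse at 5.89, and the lowest 2 ADPolB_UA mice lay within the range of WT_veh. The difference in Lgr5 was 1.97-fold (log2 0.98, SE 0.26, adjusted p = 0.188), and on the log2 scale 0.70 (adjusted p = 0.180) without ADPolB_UA 6. The same mouse was also highest of its group in Adora2a (6.07, next 3.98), Rgs4 (12.6, next 11.2) and Mef2c (12.7, next 11.9), and the part of this in the Lgr5 value was not tested.

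Kank1, which organises actin at the cell cortex, followed with 7.30, 7.71 and 8.18 in ADPolB_UA, against 6.66, 6.94 and 7.77 in WT_veh (1.55-fold, log2 0.63, SE 0.17, adjusted p = 0.188). All ADPolB_UA mice lay above 6 of the 7 WT_veh mice, and WT_veh 5 was the exception. Without WT_veh 5 Kank1 passed the threshold (log2 0.76, adjusted p = 0.0216). Ano6, a calcium-activated phospholipid scramblase, had 7.08, 7.31 and 7.66 in ADPolB_UA, against 6.59, 6.90 and 7.11 in WT_veh (1.37-fold, log2 0.45, SE 0.13, adjusted p = 0.283). Only the lowest ADPolB_UA mouse overlapped the WT_veh range. Gstz1, a glutathione transferase of tyrosine breakdown, averaged 8.29 ± 0.15 (SD, n = 6) in ADPolB_UA and 7.96 ± 0.23 (SD, n = 7) in WT_veh, with 1 WT_veh mouse, number 6, inside the ADPolB_UA range.

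Mapt, the tau gene, was the only gene whose every ADPolB_UA value exceeded every WT_veh value. It had 11.0, 11.3 and 11.5 in ADPolB_UA, against 10.7, 10.8 and 11.0 in WT_veh (1.36-fold, log2 0.44, SE 0.13, adjusted p = 0.283). The margin between the nearest mice was small, with 11.03 in ADPolB_UA and 10.97 in WT_veh. App, the amyloid precursor gene, was nearly equal in both, at 13.97 ± 0.10 (SD, n = 6) in ADPolB_UA and 13.93 ± 0.07 (SD, n = 7) in WT_veh (log2 0.04, 95% confidence interval -0.11 to 0.18, with its sign turned by median centring, by the myelin covariate and within males). Whether the Mapt and App probes also bind the human transgene RNA is not stated in the labels, so their values do not check the genotype.

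**Figure D2:**
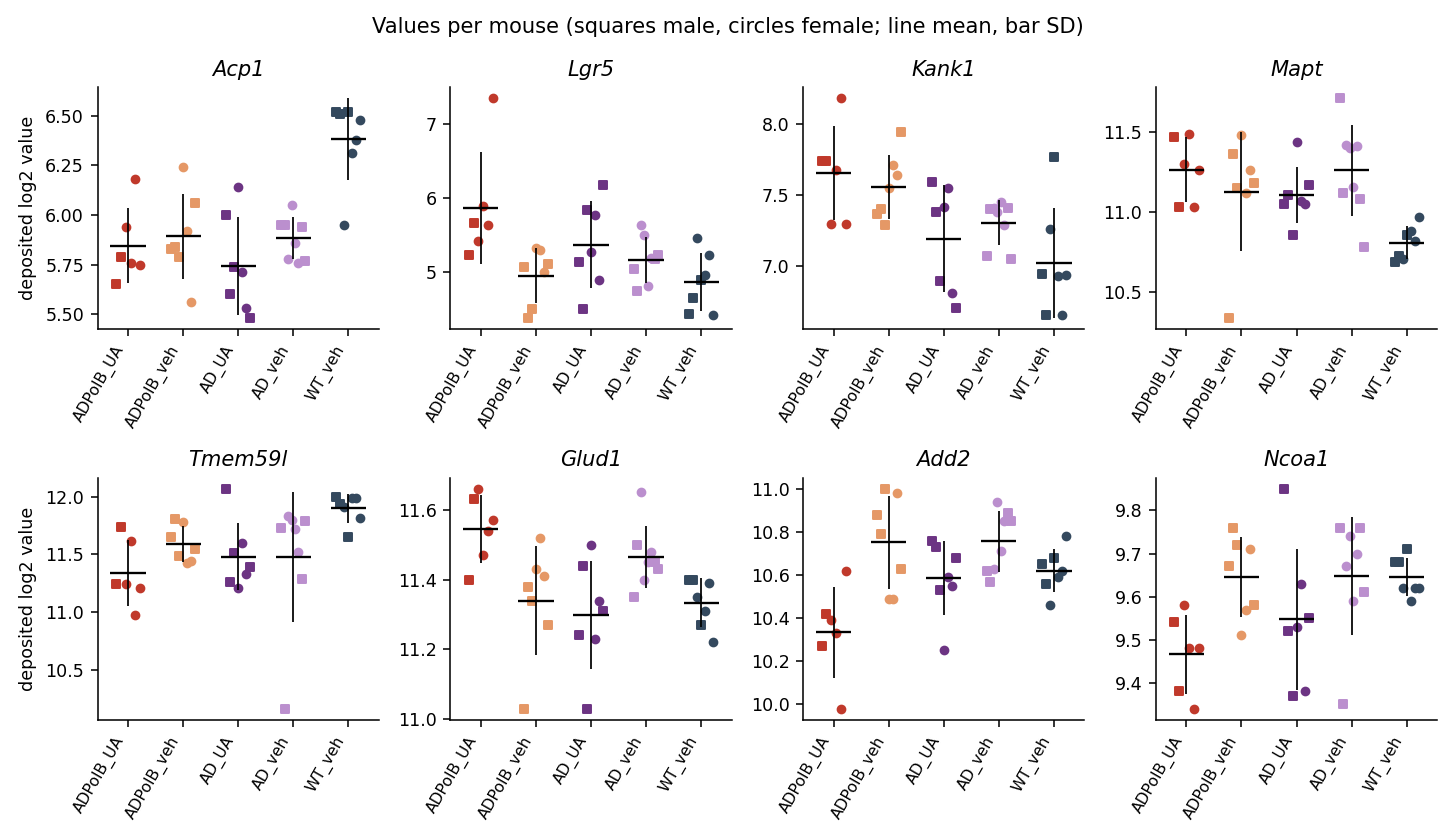
Deposited log2 values of 8 genes in every mouse of the 5 groups, with squares for males, circles for females, a line at the mean and a bar of 1 SD. Acp1 lies lower in all groups with the transgenes than in WT_veh, Mapt and Ncoa1 separate ADPolB_UA fully from WT_veh, and 1 ADPolB_UA mouse stands above the rest in Lgr5.

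Among the lower genes, Tmem59l, a transmembrane protein enriched in brain, had 10.97, 11.24 and 11.74 in ADPolB_UA, against 11.65, 11.94 and 12 in WT_veh (0.675-fold, log2 -0.57, SE 0.19, adjusted p = 0.403). Only the highest ADPolB_UA mouse, number 2, reached the WT_veh range. Fam171a1, a membrane protein, averaged 8.63 ± 0.18 (SD, n = 6) in ADPolB_UA and 8.91 ± 0.11 (SD, n = 7) in WT_veh (log2 -0.29, adjusted p = 0.403). Ncoa1, a coactivator of nuclear hormone receptors, was the 1 gene whose every ADPolB_UA value lay below every WT_veh value. It had 9.34, 9.48 and 9.58 in ADPolB_UA, against 9.59, 9.62 and 9.71 in WT_veh, which is a small difference (0.885-fold, log2 -0.18, SE 0.07, adjusted p = 0.463) with little spread in either group.

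Add2, the beta subunit of adducin that caps actin filaments on the spectrin skeleton, averaged 10.3 ± 0.2 (SD, n = 6) in ADPolB_UA and 10.6 ± 0.1 (SD, n = 7) in WT_veh (log2 -0.28, SE 0.10, adjusted p = 0.422). Tpi1, the glycolytic enzyme triosephosphate isomerase, was at 0.785-fold with 1 ADPolB_UA mouse, number 6, above the WT_veh mean. Tbl3, a factor of ribosomal RNA processing, was at 0.861-fold. All 6 ADPolB_UA mice lay below the WT_veh mean in Tbl3, and 5 did in Add2, where ADPolB_UA 6 lay on it at 10.62.

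Of the other genes among the 20 of smallest p, 8 were higher in ADPolB_UA, with all 6 mice above the WT_veh mean in each and adjusted p of 0.403 to 0.463. The largest was Rasgrp3, an exchange factor that activates Ras and Rap, at 1.66-fold (6.81 to 7.94 in ADPolB_UA, 5.71 to 7.21 in WT_veh). Anapc11, the RING subunit of the anaphase-promoting complex, was at 1.49-fold (4.60 to 5.03 in ADPolB_UA, 3.69 to 4.60 in WT_veh). Ptbp1, a splicing repressor that is low in mature neurons, was at 1.44-fold, and Srebf1, a transcription factor of lipid synthesis, at 1.42-fold. Sox9, an astrocyte transcription factor, was at 1.35-fold and Mob1a, an adaptor of the Hippo kinases, at 1.27-fold. Glud1, mitochondrial glutamate dehydrogenase, differed by the least (1.15-fold) but with little spread, at 11.5 ± 0.1 (SD, n = 6) in ADPolB_UA and 11.3 ± 0.1 (SD, n = 7) in WT_veh.

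Setting ADPolB_UA beside ADPolB_veh asks what differed with the compound on the same genotype. ADPolB_veh minus WT_veh had 0 genes called (0%) and 196 at an unadjusted p below 0.05 (25.8%), 157 higher and 39 lower. Median centring turned that split to 88 higher and 133 lower, and quantile normalization to 82 higher and 101 lower. Only 50 genes were at that level with the myelin covariate, 81 without ADPolB_veh 6, 84 without WT_veh 6, and 108 without WT_veh 1 or WT_veh 2. Without WT_veh 5, 5 genes were called. ADPolB_UA minus ADPolB_veh had 0 called (0%) and 43 at that level (5.66%), 21 higher and 22 lower. The number at that level was 28 without ADPolB_UA 2 and 69 with the myelin covariate. The 3 comparisons share mice in pairs, so their counts and values are not independent, and whether the number of differences from WT_veh was smaller in ADPolB_UA than in ADPolB_veh was not tested. For most of the 20 genes the interval of ADPolB_UA minus ADPolB_veh included 0, as for Kank1 (0.09, 95% confidence interval -0.25 to 0.44), which was at 0.63 in ADPolB_UA and 0.54 in ADPolB_veh relative to WT_veh.

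Of the 20 genes, 3 had an unadjusted p below 0.05 between ADPolB_UA and ADPolB_veh. Lgr5 had 4.37, 5.06 and 5.32 in ADPolB_veh, all but the lowest ADPolB_UA mouse lying above that range (ADPolB_UA minus ADPolB_veh 0.84, SE 0.26, limma adjusted p = 0.381), and stood at 0.13 in ADPolB_veh relative to WT_veh. Add2 averaged 10.3 ± 0.2 (SD, n = 6) in ADPolB_UA and 10.8 ± 0.2 (SD, n = 7) in ADPolB_veh (-0.40, SE 0.10, limma adjusted p = 0.238), the smallest p of that comparison. Without ADPolB_UA 6 it passed the threshold there (adjusted p = 0.0436). Glud1 was higher in ADPolB_UA by 0.19 (SE 0.07, limma adjusted p = 0.563), while ADPolB_veh and WT_veh had equal means of 11.3. These 3 genes were selected by small p against both WT_veh and ADPolB_veh. That their ADPolB_UA means lay away from both groups follows from this selection and is no separate result.

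**Figure D3:**
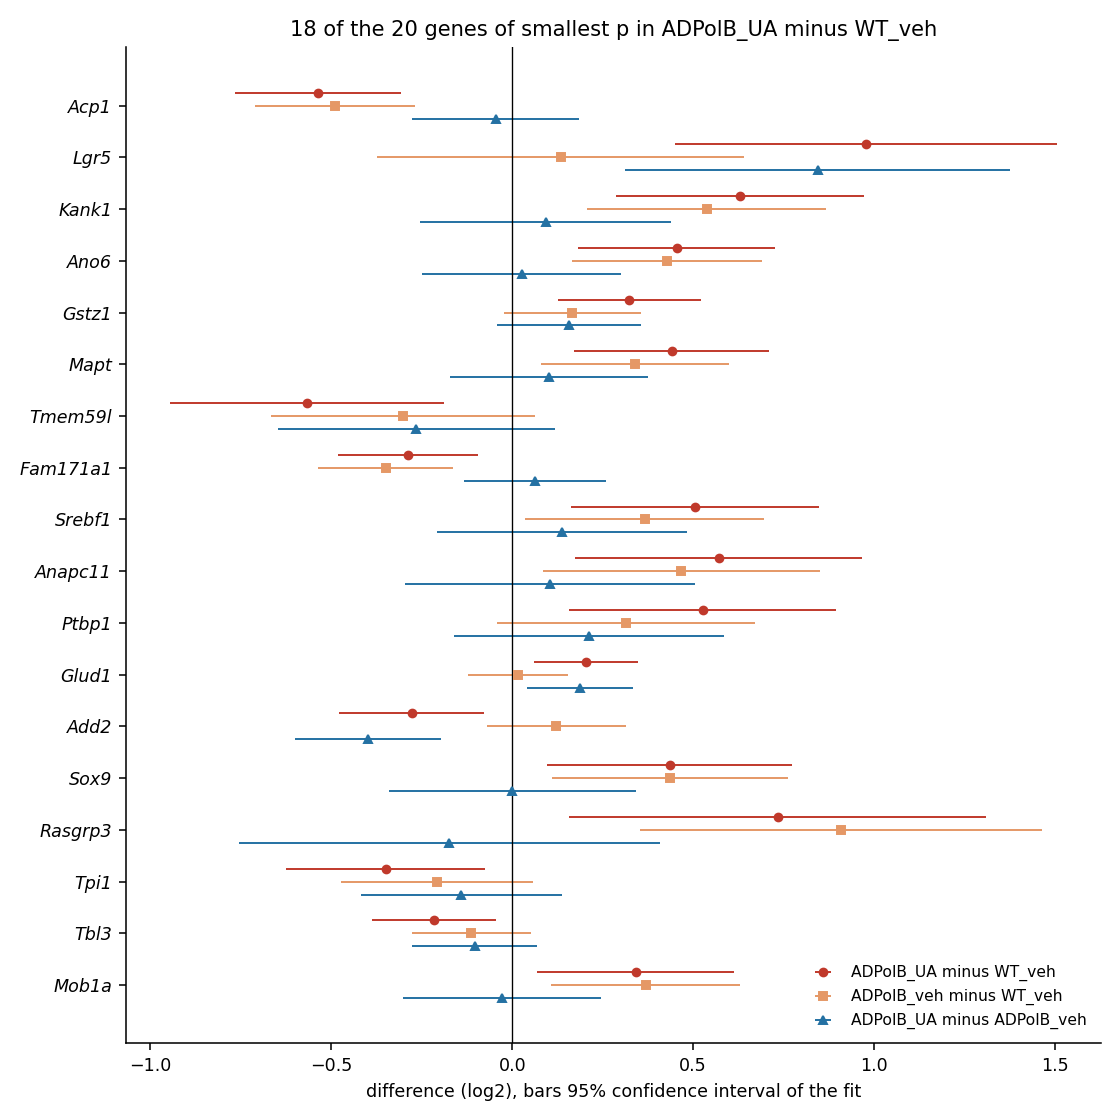
Differences in log2 with 95% confidence intervals for 18 of the 20 genes of smallest p in ADPolB_UA minus WT_veh (circles), shown beside ADPolB_veh minus WT_veh (squares) and ADPolB_UA minus ADPolB_veh (triangles). In Acp1, Kank1, Ano6, Sox9 and Mob1a the circles and squares lie close together, and in Lgr5, Glud1 and Add2 the triangle's interval excludes 0.

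Against AD_UA, which shares the compound but has both Polb copies, ADPolB_UA had 0 genes called (0%) and 96 at an unadjusted p below 0.05 (12.6%), 70 higher and 26 lower. With median centring these were 31 and 47, and with quantile normalization 29 and 49. Leaving out single mice gave 51 such genes without ADPolB_UA 5, 59 without ADPolB_UA 2, 56 without AD_UA 3 and 167 without ADPolB_UA 6. Of the 20 genes above, 9 were among the 96, including Kank1 (0.46, SE 0.17, limma adjusted p = 0.296), Srebf1 (0.47) and Glud1 (0.23). The 20 genes were selected by small p in ADPolB_UA minus WT_veh, which uses the same ADPolB_UA mice. The selection favours such an overlap, so it is no separate result about Polb. AD_UA minus WT_veh had 1 gene called (0.132%), again Acp1 at -0.64 (limma adjusted p = 0.00113), and 41 at an unadjusted p below 0.05 (5.39%), with 62 at that level without AD_UA 1, 64 without AD_UA 5 and 92 with the myelin covariate. It used the same WT_veh mice, so it is no separate test of the low Acp1 level.

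The largest list was that of oligodendrocytes, the cells that wrap axons in myelin. Of its 48 measured genes 47 had a higher mean in ADPolB_UA (46 with quantile normalization), with a median difference of 0.48 against 0.08 over all genes, of which 505 of 760 were higher. None was called, and 3 had an unadjusted p below 0.05. The mean over the list was 9.40 ± 0.54 (SD, n = 6, range 8.80 to 10.3) in ADPolB_UA and 8.93 ± 0.69 (SD, n = 7, range 8.05 to 9.76) in WT_veh, so the groups overlapped widely. The highest ADPolB_UA mouse was number 5, and the lowest WT_veh mice were 6, 1 and 2. The list median was 0.30 without ADPolB_UA 5 and 0.62 without WT_veh 8.

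Opalin, an oligodendrocyte membrane glycoprotein, had the largest difference of the list. It had 9.01, 9.47 and 11.0 in ADPolB_UA, against 7.66, 9.04 and 9.81 in WT_veh (1.83-fold, log2 0.87, SE 0.43, adjusted p = 0.463). Nkx6-2, a transcription factor of oligodendrocytes, was at 1.75-fold (log2 0.81, SE 0.36), Elovl1, which lengthens the fatty acids of myelin lipids, at 1.41-fold, and Bin1, a membrane-bending protein and Alzheimer risk gene, at 1.15-fold. The structural myelin genes Mbp, Mag and Mog differed by 0.72, 0.69 and 0.69, each with an SE of 0.38 to 0.44. The groups overlapped in all of these genes. In bulk tissue, more cells of a type and more RNA per cell cannot be told apart.

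Both microglial lists of at least 4 members also had higher means, while of the 2 homeostatic microglia genes measured, Mef2c was lower (-0.88) and Tgfbr1, a TGF-beta receptor, higher (0.32, SE 0.22). The general microglia and myeloid list had 7 of 7 genes higher (6 with quantile normalization), with a median of 0.59. Lcp1, an actin bundler of leukocytes, had 7.16, 7.86 and 8.30 in ADPolB_UA, against 6.36, 7.10 and 7.71 in WT_veh (1.56-fold, log2 0.64, SE 0.30, adjusted p = 0.463). All 6 ADPolB_UA mice exceeded the WT_veh mean of Lcp1, though the ranges overlapped. Fcer1g, the signalling chain of Fc receptors, was at 1.49-fold, and Tyrobp, the adaptor of Trem2, at 0.66 (SE 0.39) on the log2 scale.

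Of the disease-associated microglia genes 11 of 11 were higher (10 with quantile normalization), with a median of 0.44. Ctss and Tyrobp stand on both microglial lists. Cd74, the invariant chain of MHC class II, spread most, with 7.03, 8.48 and 10.7 in ADPolB_UA, against 5.18, 7.63 and 9.10 in WT_veh (2.1-fold, log2 1.07, SE 0.55, adjusted p = 0.463). Its spread within each group was wider than the difference between them. Axl, a receptor kinase for engulfing dying cells, was tighter, at 8.47 ± 0.20 (SD, n = 6) in ADPolB_UA and 8.01 ± 0.28 (SD, n = 7) in WT_veh (1.36-fold). Grn, the lysosomal protein progranulin, was at 1.29-fold, B2m, the light chain of MHC class I, at 1.5-fold, and Apoe, the lipid carrier, at 0.40 (SE 0.23) on the log2 scale. Trem2, the lipid receptor needed for this state, differed least, at 0.16 (SE 0.37) with values as low as 3.56.

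Complement and cytokine signalling genes were also higher in all measured members. The 4 complement genes had a median of 0.46. C1qa, C1qb and C1qc, the chains of C1q that tag synapses and plaques, differed by 0.45, 0.38 and 0.46, each with an SE of 0.34 to 0.38, and Serping1, the inhibitor of C1, by 0.54 (SE 0.37). The 4 cytokine genes, of which Csf1 is also on the disease-associated microglia list, had a median of 0.52. Tgfbr2, the ligand-binding TGF-beta receptor, had 7.99, 8.36 and 9.11 in ADPolB_UA, against 7.17, 7.58 and 8.64 in WT_veh (1.58-fold, log2 0.66, SE 0.27, adjusted p = 0.463), and Tnfrsf1a, the main TNF receptor, was at 1.49-fold. In both receptors all 6 ADPolB_UA mice lay above the WT_veh mean while the ranges overlapped.

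**Figure D4:**
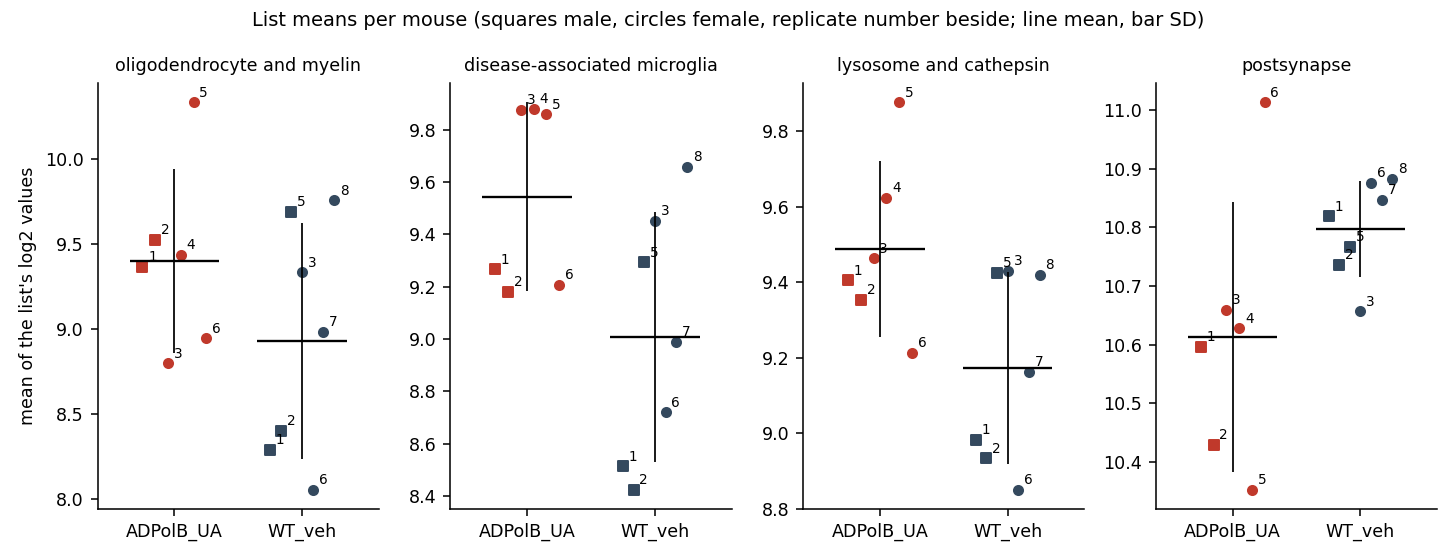
Mean log2 value of the members of 4 lists in each mouse, with ADPolB_UA left and WT_veh right, replicate numbers beside the points, a line at the group mean and a bar of 1 SD. WT_veh 1, 2 and 6 are lowest in the myelin, microglia and lysosome panels, and ADPolB_UA 6 stands above all others in the postsynapse panel.

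Within WT_veh, mice 1, 2 and 6 were lowest in the myelin list and also in the microglial, complement and cytokine lists. Within ADPolB_UA the general microglia list did not run with myelin in this way. Mouse 3 had the lowest myelin mean (8.80) and the highest general microglia mean (9.49). Mouse 2 had the second highest myelin mean (9.52) and the lowest general microglia mean (8.43). In the disease-associated microglia and complement lists mouse 4 was highest and mouse 2 lowest. In the cytokine list mouse 5, the highest in myelin, was also highest (8.965), and mouse 6 was lowest (8.075). With the myelin list mean as a covariate, the medians were 0.20 for general microglia (6 of 7 higher), 0.20 for disease-associated microglia (8 of 11), 0.04 for complement (3 of 4) and 0.16 for cytokine signalling (4 of 4), against 0.03 over all genes. The myelin median was 0.02 (27 of 48 higher), but the covariate is the mean of these same 48 genes, so a value near no difference was fixed in advance. Without WT_veh 6 alone the medians of the general microglia, disease-associated microglia, complement and cytokine lists were 0.50, 0.35, 0.37 and 0.44, and the highest medians with any 1 mouse left out were 0.68, 0.58, 0.58 and 0.64.

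Of the astrocyte genes 6 of 6 were higher as deposited, but 4 of 6 with median centring or quantile normalization, and the median was 0.12. Besides Sox9, Mlc1, a membrane protein of astrocyte endfeet, averaged 10.6 ± 0.1 (SD, n = 6) in ADPolB_UA and 10.2 ± 0.2 (SD, n = 7) in WT_veh (log2 0.29, SE 0.13, adjusted p = 0.463). Ntrk2, the BDNF receptor, was at 0.12. Of 8 vessel wall genes 7 were higher (3 with quantile normalization, where the median turned to -0.07), with a median of 0.12 that was 0.03 without WT_veh 6 and 0.19 without ADPolB_UA 3. Itgb1, an integrin subunit, was at 0.24.

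Neuronal genes mostly lay at or below the all-gene median. All 9 postsynaptic genes had lower means in ADPolB_UA, as they did with median centring and quantile normalization, with a median of -0.15. The list mean was 10.6 ± 0.2 (SD, n = 6) in ADPolB_UA and 10.8 ± 0.1 (SD, n = 7) in WT_veh, and ADPolB_UA 6, at 11.0, lay above every WT_veh mouse while the other 5 lay at or below 10.7. Dlg3, a scaffold of NMDA receptors, had 9.95, 10.2 and 10.5 in ADPolB_UA, against 10.4, 10.5 and 10.7 in WT_veh (0.825-fold, log2 -0.28, SE 0.11, adjusted p = 0.463). Ppp3r1, the regulatory subunit of calcineurin, averaged 12.9 ± 0.2 (SD, n = 6) in ADPolB_UA and 13.2 ± 0.1 (SD, n = 7) in WT_veh (log2 -0.27). In both genes all 6 ADPolB_UA mice lay below the WT_veh mean. The list median was -0.26 without ADPolB_UA 6 or with median centring, -0.08 without ADPolB_UA 2 and -0.09 with the myelin covariate, where 1 of 9 genes was higher.

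The medians of the presynaptic lists stayed negative with median centring and quantile normalization, and turned positive with the myelin covariate or without ADPolB_UA 5. Of 15 SNARE genes 6 were higher, with a median of -0.04. That median was -0.15 with median centring (2 of 15 higher) and -0.08 without ADPolB_UA 6, and turned to 0.03 without ADPolB_UA 5 and to 0.08 with the myelin covariate (10 of 15). Stxbp5l, an inhibitor of SNARE assembly, was lowest in p (0.843-fold, log2 -0.25, SE 0.12), and Stx1a, the main plasma membrane syntaxin of neurons, was at 0.754-fold with values of 8.58 to 10.8 in ADPolB_UA that enclosed the 9.37 to 10.8 of WT_veh. Of 22 synaptic vesicle and endocytosis genes 8 were higher, with a median of -0.03. It was -0.14 with median centring (1 of 22 higher), -0.07 with quantile normalization (6 of 22) and -0.09 without ADPolB_UA 6, and turned to 0.03 without ADPolB_UA 5 and to 0.12 with the myelin covariate (19 of 22). Syt16, an atypical synaptotagmin, was at 0.673-fold (7.50, 8.59 and 9.46 in ADPolB_UA, against 8.71, 9.34 and 9.75 in WT_veh, adjusted p = 0.463). Sv2a, a synaptic vesicle glycoprotein, differed by 0.09 and Atp6v1c1, a subunit of the vesicle proton pump, by -0.11.

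Of 5 inhibitory neuron genes 2 were higher, with a median of -0.12 that was -0.22 without ADPolB_UA 6, -0.08 without ADPolB_UA 2 and -0.23 with median centring. Gabrg1, a GABA-A receptor subunit, lay at 0.32 (SE 0.22), and Gabrd, the subunit of extrasynaptic receptors, at -0.54 (SE 0.44). Mef2c, a transcription factor of neuronal activity and of microglia, had the lowest difference of the table. Its values were 9.34, 10.2 and 12.7 in ADPolB_UA, against 10.3, 11.7 and 12.3 in WT_veh (0.544-fold, log2 -0.88, SE 0.47, adjusted p = 0.463), so ADPolB_UA mice lay both below and above the whole range of WT_veh. The other activity-dependent gene with a large difference was Nptx2, a pentraxin of excitatory synapses (-0.46, SE 0.29). The list of 5 such genes had 1 higher and a median of -0.11, which was -0.23 without ADPolB_UA 6, -0.01 without ADPolB_UA 5, -0.06 with the myelin covariate and -0.22 with median centring. Of 4 genes enriched in striatum 2 were higher, with a median of 0.00 that was -0.24 without ADPolB_UA 6 and 0.11 without ADPolB_UA 1.

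Lysosomal genes were among those with higher means, though Ctss, Cd63, Grn, Npc2 and Laptm5 also stand on a microglial list. Of 16 measured, 14 were higher (13 with median centring), with a median of 0.30, none called and 3 at an unadjusted p below 0.05. The list mean was 9.49 ± 0.23 (SD, n = 6) in ADPolB_UA and 9.17 ± 0.25 (SD, n = 7) in WT_veh. Npc1, which exports cholesterol out of lysosomes, had 9.28, 9.47 and 10.1 in ADPolB_UA, against 8.61, 9.14 and 9.57 in WT_veh (1.32-fold, log2 0.40, SE 0.17, adjusted p = 0.463). All 6 ADPolB_UA mice exceeded its WT_veh mean, within overlapping ranges. Tfeb, the transcription factor that induces lysosomal and autophagy genes, was at 1.41-fold and Tcirg1, a subunit of the lysosomal proton pump, at 1.46-fold. With median centring the list median was 0.19. With the myelin covariate it was 0.07 and 13 of 16 genes were higher, and without ADPolB_UA 5 it was 0.22.

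Of 5 genes of autophagy and mitophagy, the process that Urolithin A is known for, Tfeb was higher (log2 0.49, SE 0.24, limma adjusted p = 0.463) and the other 4 had lower means. The list median was -0.02, which was -0.13 with median centring, -0.16 with quantile normalization, -0.07 without ADPolB_UA 6 and 0.02 without WT_veh 6, with Trappc4, a subunit of a membrane tethering complex, at -0.07 (SE 0.08). Of 12 genes of oxidative phosphorylation and mitochondria 6 were higher (3 with median centring or quantile normalization, medians -0.12 and -0.09), with a median of -0.01 and a list mean of 9.12 ± 0.07 (SD, n = 6) in ADPolB_UA and 9.10 ± 0.07 (SD, n = 7) in WT_veh. Besides Glud1, Ndufab1 and Ndufa5, both of respiratory complex I, lay at 0.27 (SE 0.16) and -0.26 (SE 0.31), and Mfn1, a mitochondrial fusion protein, at 0.16 (SE 0.10). Of 7 genes of glycolysis and energy metabolism 4 were higher, with a median of 0.05 that turned to -0.06 with median centring and to -0.09 with quantile normalization.

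Of 24 proteasome and protein folding genes 9 were higher, with a median of -0.08. It was -0.20 with median centring (3 of 24 higher), -0.15 with quantile normalization (5 of 24), -0.04 with the myelin covariate and -0.05 without ADPolB_UA 5. Chordc1, a heat shock cochaperone, was at 0.856-fold (9.17, 9.43 and 9.77 in ADPolB_UA, against 9.35, 9.74 and 9.76 in WT_veh). Ahsa1, which activates a heat shock chaperone, was at 0.907-fold and Ppid, a cyclophilin, at 0.896-fold, while Psmb2, a proteasome subunit, was at 1.1-fold. Of 4 genes of DNA repair, cell cycle and cell death 3 were higher as deposited and 1 with median centring or quantile normalization. Bcl2, which blocks apoptosis, had 6.57, 6.86 and 7.01 in ADPolB_UA, against 6.12, 6.39 and 6.89 in WT_veh (1.31-fold, log2 0.39, SE 0.16, adjusted p = 0.463), and was 0.57 above ADPolB_veh (SE 0.16, limma adjusted p = 0.381).

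**Figure D5:**
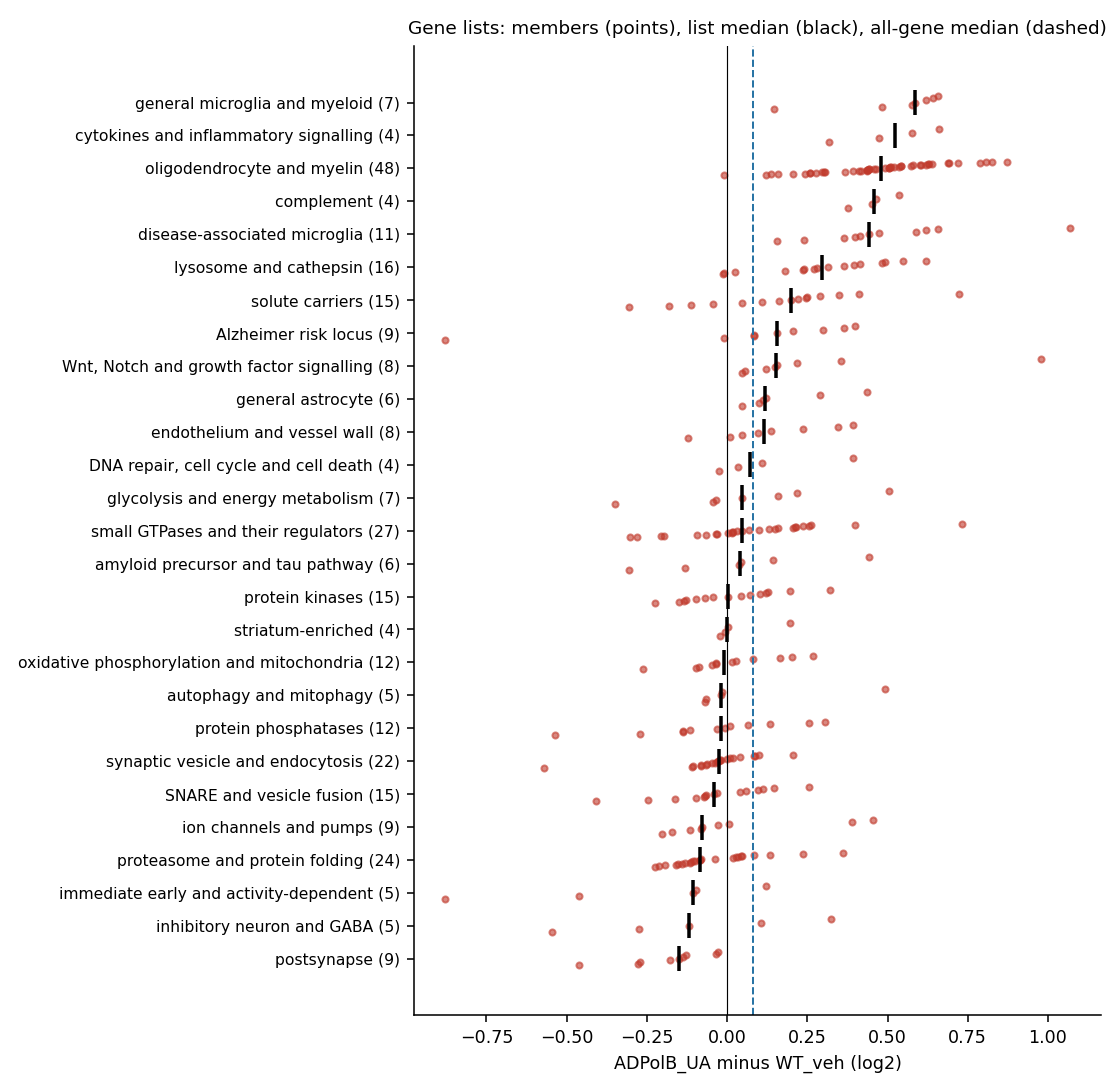
Log2 differences of ADPolB_UA minus WT_veh for the members of 27 lists (points), with each list's median (black bar), 0 (thin line) and the median of all 760 genes, 0.08 (dashed line). The glial and lysosomal lists sit to the right of the dashed line and the postsynaptic list lies wholly to the left of 0.

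Of 9 Alzheimer risk genes 7 were higher (5 with median centring or quantile normalization), with a median of 0.16 that was 0.06 without WT_veh 6 and turned to -0.02 with the myelin covariate. Cd2ap, an actin-linked adaptor of membrane traffic, averaged 7.65 ± 0.15 (SD, n = 6) in ADPolB_UA and 7.37 ± 0.28 (SD, n = 7) in WT_veh (1.23-fold, log2 0.30, SE 0.14). Of 6 genes of the amyloid precursor and tau pathway 4 were higher, with a median of 0.04 that turned to -0.07 with median centring and -0.04 with quantile normalization.

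All 8 genes of the Wnt, Notch and growth factor list were higher as deposited, 6 with median centring and 5 with quantile normalization, with a median of 0.15. Besides Lgr5, Wls, the carrier that secretes Wnt proteins, had 9.22, 9.73 and 10.1 in ADPolB_UA, against 8.88, 9.35 and 9.74 in WT_veh (1.28-fold, log2 0.36, SE 0.16, adjusted p = 0.463). Of 15 solute carriers 11 were higher, with a median of 0.20 that was 0.00 with quantile normalization. Slc8a2, a sodium-calcium exchanger of neurons, was the lowest (0.81-fold, log2 -0.30, SE 0.15) and lay 0.48 below ADPolB_veh. Slc39a1, a zinc transporter, was at 1.19-fold, Slco2b1, an organic anion transporter, at 1.27-fold, and Slc44a2, a choline transporter-like protein, at 1.22-fold.

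Of 27 small GTPases and their regulators 19 were higher (11 with median centring, 12 with quantile normalization), with Rhoc at 1.32-fold, Rhobtb3 at 1.2-fold and Rhoq at 1.18-fold. Of 15 protein kinases 8 were higher (4 with median centring), with a median of 0.00 that ranged between -0.06 and 0.04 as single mice were left out, and none had an unadjusted p below 0.05. Pak1, an effector of Rac, was at 0.901-fold, Map4k5 at 1.09-fold and Prkd3 at 1.15-fold. Of 12 protein phosphatases 5 were higher (median -0.02, or -0.12 without ADPolB_UA 6), with Acp1 lowest, Phlpp1, which dephosphorylates Akt, at 1.19-fold and Inppl1, a lipid phosphatase, at 1.24-fold. Of 9 ion channels and pumps 3 were higher (median -0.08, or -0.01 without ADPolB_UA 2), among them Kcnq5, a potassium channel, at 1.31-fold (8.28, 8.80 and 9.12 in ADPolB_UA, against 7.77, 8.36 and 8.58 in WT_veh).

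Males and females were compared on the same differences, with only 2 male ADPolB_UA mice. The difference between the male and the female effect was called in 0 of 760 genes (0%) and had an unadjusted p below 0.05 in 3 (0.395%), Bdh1, Smg9 and Sumf2, named after their values were seen. All 20 genes of smallest p had the same sign in both sexes, and 0 of them had an unadjusted p below 0.05 for the sex difference. These genes were selected by p over the same males and females together, which favours equal signs, so this is no separate evidence that the sexes agree. Acp1 differed by -0.80 in males and -0.37 in females (limma unadjusted p of the sex difference 0.0802). The myelin median was 0.62 in males and 0.36 in females. The postsynaptic median was -0.26 in males and -0.07 in females.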

How the data were processed

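Hippocampal RNA of 35 mice was counted on the NanoString nCounter platform, with the Rosalind platform named for analysis per the labels. The deposited table holds log2 values normalized by the authors, 1 column per mouse, and was used as it stands. The normalization reference, background treatment, batches and counts behind each value are not stated in the labels or the file, so depth is unknown and the number of mice limits precision. Each gene was fitted with limma 3.58.1 in R 4.3.3 (lmFit, contrasts.fit, eBayes) with 5 groups and sex as terms over all 35 mice, two-sided, with Benjamini-Hochberg adjustment over 760 genes and a threshold of 0.05. Sex effects came from a mean per group and sex. Pairs of mice had equal values in at most 4.21% of genes (within 0.005). Of the symbols 750 were in RefSeq's GRCm38.p6 gene table. The fit was tested on simulated data in which each gene varied independently of the others. That test cannot speak for how far the counts of genes given here could vary.

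The comparison, the 35 gene lists and the named genes were chosen with earlier results of these data known. Named genes were the 20 of smallest p, up to 4 of smallest p in lists of at least 10 members and 2 in lists of 4 to 9, genes without overlap, and App and Mapt. Other list members were also given with values, outside this rule and with their values known. These include Mbp, Mag, Mog, Tyrobp, Apoe, Trem2, C1qa, C1qb, Tgfbr1, Gabrd and Nptx2. The signs of these other members were not followed through the alternatives. Some genes and alleles that this rule or the labels give are not reported here, though they stay in the fits and the list counts. Lists with at least 4 measured members (27) are described by counts and medians, and 8 with fewer are not. Some genes stand on several lists, so the lists are not independent. Alternatives were only the 2 groups, no sex term, median centring, quantile normalization, no dimmest 25% of genes, trend and robust moderation, estimated sample weights, the myelin list mean as a covariate, a replicate block, each sex, and each mouse left out.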

Additional observations from a re-analysis of the deposited data

Results flagged for a closer look

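Of 210 groups of 6 or 7 mice examined, 16 had 1 mouse far from the rest by Dixon's test, where chance alone sets apart about 1 in 20 groups, or 10.5 here. ADPolB_UA 5 was highest in the sample median over all genes (9.07, next 8.90), Npc1 (10.1, next 9.56), Map4k5 (9.65, next 9.47) and Prkd3 (6.89, next 6.26). ADPolB_UA 6 was highest in Lgr5 (7.35, next 5.89), Rgs4 (12.6, next 11.2) and Pak1 (12.2, next 11.6), and in the means of the SNARE (11.0, next 10.7), ion channel (10.71, next 10.45) and protein kinase (9.86, next 9.55) lists. In WT_veh, mouse 3 was lowest in Acp1 (5.95, next 6.31) and in the mean of the protein phosphatase list, which holds Acp1 (9.95, next 10.03). WT_veh 6 was highest in Gabrg1 (7.35, next 6.42) and Dlg3 (10.72, next 10.51). WT_veh 5 was highest in Cd2ap (7.93, next 7.47) and lowest in Kcnq5 (7.77, next 8.30). No difference between the sexes passed the threshold.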

How the results depend on the processing

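Between ADPolB_UA and WT_veh, Acp1 was called alone with no sex term, median centring, quantile normalization and the myelin covariate (adjusted p 0.0221, 0.00625, 0.00372 and 0.0196). Of 5 replicate numbers shared by the 2 groups, 2 correlated above 0.1 after removal of the group means (range -0.47 to 0.79). These 2, numbers 5 and 6, were also the best match of their own number. Whether the numbers pair the mice was not settled by these values. The fit with the replicate block called 1 gene, Acp1 (limma adjusted p = 0.0144), with 68 at an unadjusted p below 0.05. The count was 0 with only the 2 groups, with trend and robust moderation, and among the 570 genes left without the dimmest 25%, where Acp1 was not tested and 44 genes had an unadjusted p below 0.05. Estimated sample weights called 285 genes, with 366 at an unadjusted p below 0.05, and 20 for ADPolB_UA minus ADPolB_veh, 24 for ADPolB_UA minus AD_UA, 441 for ADPolB_veh minus WT_veh and 134 for AD_UA minus WT_veh. The cause was not tested. ADPolB_veh minus WT_veh had 1 call with no sex term, the myelin covariate or the replicate block, 2 with median centring and 3 with quantile normalization. AD_UA minus WT_veh had 0 with only the 2 groups and 2 with the myelin covariate.

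Leaving out 1 mouse at a time gave 0 to 2 calls and 31 to 142 genes at an unadjusted p below 0.05 for ADPolB_UA minus WT_veh. It gave 0 to 1 calls for ADPolB_UA minus ADPolB_veh, 0 for ADPolB_UA minus AD_UA, 0 to 5 for ADPolB_veh minus WT_veh, 1 to 3 for AD_UA minus WT_veh and 0 for the sex difference, and a sample median difference of 0.08 to 0.14.

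Of 77 named genes, 67 kept their sign in every alternative. The 10 others turned as follows, on the log2 scale. With median centring Stx4a was at -0.0006, Sv2a at -0.0259 and App at -0.0753. With quantile normalization Prkd3 was at -0.0313. With sample weights Adora2a was at -0.37 and Sv2a at -0.0542. With the myelin covariate Adora2a was at -0.0363, Rgs4 at 0.0873, Stx1a at 0.0166, Stx4a at -0.0111, Atp6v1c1 at 0.0129, Prkd3 at -0.0372, Pak1 at 0.0036 and App at -0.0079. Within males Adora2a was at -0.31, Trappc4 at 0.11 and App at -0.0017. Rgs4, at -0.02 with the values as deposited, was at 0.11 within females and 0.0208 with the replicate block. As single mice were left out it ranged between -0.3022 and 0.1132, above 0 without WT_veh 6, 7 or 8 or ADPolB_UA 1, 2, 4 or 5, and Adora2a ranged between -0.2989 without ADPolB_UA 6 and 0.4803. The cause was not tested. List medians were taken with median centring, quantile normalization, the myelin covariate, each sex and each mouse left out, not in the other alternatives. Of these 486 medians, 21 moved by more than 1 SD between mice. A rescaling on panel reference genes was not run, since B2m alone was recognised as one. Depth in counts is unknown, so what low levels limit could not be given.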

Other observations

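Genes on none of the lists made up 44 of the 76 at an unadjusted p below 0.05 between ADPolB_UA and WT_veh, 35 higher and 9 lower. The following were picked after their values were seen, none had an adjusted p below the threshold, and all are log2 differences as deposited. They are single genes, and no group they might form was counted over the panel or tested. The higher ones included Antxr1, a collagen-binding receptor (0.72, SE 0.29), Msn, the membrane-actin linker moesin (0.58, SE 0.25), Efemp2, a fibulin of elastic fibres (0.57, SE 0.27), Tln1, the integrin activator talin (0.52, SE 0.23), Fat1, an atypical cadherin (0.43, SE 0.18), Lamb2, a laminin chain (0.42, SE 0.20), and Eps8, an actin-capping protein (0.30, SE 0.13). Zfp36 and Zfp36l1, which speed the decay of AU-rich mRNAs, were at 0.60 (SE 0.27) and 0.45 (SE 0.22). Gab1, a docking protein of receptor tyrosine kinases, was at 0.62 (SE 0.27), and Aldh2, the mitochondrial aldehyde dehydrogenase, at 0.34 (SE 0.16).

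Of the 9 lower genes on no list, Thrb, a thyroid hormone receptor, was at -0.44 (SE 0.18), Chrm1, a muscarinic receptor of hippocampal neurons, at -0.37 (SE 0.16), and Chn1, a GTPase-activating protein for Rac, at -0.34 (SE 0.14). Among genes of large difference but larger spread, Enpp2, which makes lysophosphatidic acid and stood on the myelin and the choroid plexus lists, ranged between 9.80 and 14.5 in ADPolB_UA and between 9.28 and 14.1 in WT_veh (0.83, SE 0.89). Tspo, a mitochondrial outer membrane protein used as a marker of activated glia, averaged 5.87 ± 0.56 (SD, n = 6) in ADPolB_UA and 5.12 ± 0.67 (SD, n = 7) in WT_veh (0.70, SE 0.35, limma unadjusted p = 0.0512).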
